A study of Mus musculus with 34 samples.

Results

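Of the 23109 genes measured by RNA-Seq in immortalized brown preadipocytes, 10 genes that encode transcription regulators of the brown fat lineage are described here. The genes are *Prdm16*, *Ebf1*, *Ebf2*, *Ebf3*, *Zfp423*, *Zfp516*, *Tle3*, *Mecom*, *Ehmt1*, and *Tbx15*. They were chosen by name for what they are known to do, by a rule that uses no measured value, although earlier results of these data were known. All 10 were detected in all 14 libraries.

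Brown and white fat cells share the adipogenic program driven by PPARγ and C/EBPα, and a further set of regulators decides whether the brown program is added to it. EBF2 binds brown genes together with PPARγ, PRDM16 and its relative MECOM (also called PRDM3) bind histone methyltransferases such as EHMT1 and corepressors, and the zinc finger protein ZFP423 and the corepressor TLE3 are known for holding the brown program back in white fat cells. PRDM16, EBF2, and ZFP516 are known as activators of the thermogenic gene *Ucp1*.

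All libraries came from preadipocytes of interscapular brown fat of newborn mice immortalized with SV40T, and RNA-Seq was performed with 1 library per condition. Cells stably expressing FLAG-tagged WT histone H3.3 (hereafter WT cells) or its K36M mutant (K36M cells) from a retrovirus were collected at D0, D2, and D7 of adipogenesis, where D0 is the confluent preadipocyte and the induction medium held insulin, T3, IBMX, dexamethasone, and indomethacin. WT and K36M cells that also carried retroviral PPARγ were treated as sub-confluent preadipocytes, unlike the confluent D0 cells. They received DMSO, which the labels place at 0 h, or the PPARγ ligand rosiglitazone (Rosi) for 24 h. Cells with a lentiviral control shRNA (Ctrl) or an shRNA against the H3K36 methyltransferase gene *Nsd2* (Nsd2 KD) were collected at D0 and D2. K36M lowers methylation of H3K36 on the cell's own histones, so both perturbations bear on the same mark. The labels describe C57BL/6J cells with a floxed glucocorticoid receptor gene that received Vec or Cre, whereas the methods describe cells of WT mice, and which library, if any, received Cre is not given. The receptor gene *Nr3c1* read 10.1 to 30.9 RPKM over the 14 libraries, with 30.9 in WT and 12.7 in Ctrl cells at D0. Loss of a floxed part of the gene was not tested. The methods describe DMSO or Rosi as given for 24 h, so whether the DMSO libraries were matched in time is not settled by these sources.

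Because each condition has 1 library, no difference has a replicate check and no test between conditions was made. Each log2 ratio below compares RPKM (reads divided by transcript length and by library depth) of 2 libraries, and the interval beside it is a 95% Clopper-Pearson interval of the reads, which covers counting error only. A gene was called at a ratio over 2-fold. The libraries held 12213559 to 24365867 mapped reads, and the members 33 to 4955 reads each. The knockdown gene *Nsd2* was lower in KD than in Ctrl cells at both days, with an RPKM of 5.85 against 19.9 at D0 and 7.01 against 29.0 at D2. Of the brown fat genes that define the mature cell, *Ucp1* stayed at or below 0.19 RPKM, *Cidea* at or below 0.10, and *Dio2* at or below 0.05 in all 14 libraries. These 3 genes therefore do not mark the cells as brown. Of 14 brown fat genes listed, the 4 with the highest RPKM were *Pdk4*, *Esrra*, *Zic1*, and *Ppargc1b*, which reached 35.5, 33.3, 16.0, and 10.4. The leukocyte markers *Adgre1*, *Ptprc*, and *Itgam* stayed at or below 0.08 RPKM, *Csf1r* and *Cd14*, the others of 5 found, reached 2.95 and 7.97, and none of 5 endothelial markers passed 1 RPKM outside K36M cells at D7, where *Tek* reached 2.08. In bulk RNA, fewer cells of a type and less RNA per cell cannot be told apart.

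Ordered by the median RPKM over the 14 libraries, *Tbx15* (30.3) and *Tle3* (22.6) stood at the top, followed by *Ebf1* (17.7), *Zfp516* (13.9), *Ehmt1* (12.4), *Ebf2* (8.57), *Ebf3* (5.56), *Zfp423* (3.71), *Mecom* (2.27), and *Prdm16* (1.31). The 10 genes therefore spanned a wide range, and the gene best known for brown identity had the lowest level. *Prdm16* also varied most, by 18.7-fold between its lowest and its highest library, and *Ehmt1* least, by 1.93-fold. *Zfp423* varied by 10.7-fold and *Ebf2* by 8.03-fold. With the libraries ordered by level, counting error could not separate 9 of the 13 neighbouring pairs for *Prdm16*, 11 for *Ehmt1*, 6 for *Ebf2*, and 5 for *Zfp516*.

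Promoters of 7 of the 10 members were matched in RefSeq (build GRCm38.p6), with 10 windows of 250 bases before to 50 after an annotated start. *Ebf2*, *Zfp516*, and *Tbx15* had none in the table. The stretch of 250 bases upstream of the start is shown for 4 members, 5′ to 3′. *Tle3* and *Zfp423* were called up together in WT cells between D0 and D2, and *Prdm16* and *Mecom* are relatives whose RNA moved differently. They lie at chr9:61372116-61372365 on the plus strand for *Tle3*, and on the minus strand at chr8:87959596-87959845 for *Zfp423*, chr4:154636874-154637123 for *Prdm16*, and chr3:30509760-30510009 for *Mecom*, whose second start, chr3:30013205-30013454, is shown as well. Capitals mark a match to 1 of the motifs named after the sequences.
Tle3: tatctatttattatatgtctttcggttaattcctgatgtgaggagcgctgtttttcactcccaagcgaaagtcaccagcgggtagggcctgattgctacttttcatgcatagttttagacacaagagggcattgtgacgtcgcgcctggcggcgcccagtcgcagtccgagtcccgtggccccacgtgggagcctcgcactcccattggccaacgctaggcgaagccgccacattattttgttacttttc
Zfp423: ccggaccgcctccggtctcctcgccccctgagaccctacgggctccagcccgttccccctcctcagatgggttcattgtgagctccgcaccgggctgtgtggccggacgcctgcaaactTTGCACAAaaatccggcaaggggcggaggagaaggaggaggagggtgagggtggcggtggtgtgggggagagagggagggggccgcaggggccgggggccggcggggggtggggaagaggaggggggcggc
Prdm16: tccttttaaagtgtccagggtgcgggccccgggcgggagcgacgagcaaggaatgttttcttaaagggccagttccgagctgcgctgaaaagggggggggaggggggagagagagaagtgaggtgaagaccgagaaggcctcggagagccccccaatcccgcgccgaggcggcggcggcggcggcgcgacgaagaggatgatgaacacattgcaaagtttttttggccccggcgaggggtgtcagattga
Mecom: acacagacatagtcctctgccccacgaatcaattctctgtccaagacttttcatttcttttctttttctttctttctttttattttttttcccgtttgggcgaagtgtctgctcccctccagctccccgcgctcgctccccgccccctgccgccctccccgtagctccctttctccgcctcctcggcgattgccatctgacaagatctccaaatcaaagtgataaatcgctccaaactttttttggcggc
Mecom second start: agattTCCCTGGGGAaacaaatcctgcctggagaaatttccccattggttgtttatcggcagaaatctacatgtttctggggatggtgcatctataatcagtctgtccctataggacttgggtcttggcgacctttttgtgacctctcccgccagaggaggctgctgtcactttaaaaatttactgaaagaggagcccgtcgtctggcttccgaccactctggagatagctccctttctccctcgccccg

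Motifs were searched on both strands of the 300 bases of each window, and none of the motifs contains another. The C/EBP motif TTGCNNAA was found in the first *Zfp423* window alone among the members, at -131 to -124 and again at 23 to 30 from the start, and 10.8% of all 32851 promoters of that length hold it. The EBF motif TCCCNNGGGA was found in the second *Mecom* window at -245 to -236, and in 0.904% of all promoters. No member window held the PPARγ response element AGGTCANAGGTCA (0.0396% of all) or the glucocorticoid response element ACANNNTGT (6.85% of all). These are matches of letters, not sites. *Prdm16* and the first *Mecom* window shared an identical run of 24 bases, at 10 to 33 and at 27 to 50 after their starts, the longest between any pair of members. Bases of G or C made up 77% of the *Ebf3* window and 36.7% of the first *Ebf1* window, against a median of 52.7% over all promoters.

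From D0 to D2 in WT cells, 4 of the 10 members were called up (*Ebf2*, *Zfp423*, *Tle3*, and *Zfp516*) and none down, beside 13.6% up and 25.2% down among all genes measured. From D2 to D7 none was up and 2 were down (*Tle3* and *Zfp516*), beside 22.4% and 12.2%. In K36M cells 2 were up from D0 to D2 (*Ebf2* and *Zfp423*; background 16.5% up, 19.6% down), and from D2 to D7 *Mecom* was up (21.5%) while *Ebf2* and *Zfp423* were down (14.9%). Ctrl cells had 2 up from D0 to D2 (*Ebf2* and *Prdm16*; 17.3% up, 23.4% down), and Nsd2 KD cells had none up (16.9%) and *Mecom* down (24.5%). With PPARγ and Rosi, *Prdm16* and *Zfp423* were called up (17%) and *Mecom* down (16.2%) in WT cells, and no member was called in K36M cells (18.3% up, 15% down). Among genes of at least 1 RPKM in 1 of the libraries compared, the shares were smaller. From D0 to D2 they were 9.38% up and 17.3% down in WT, 10.2% and 11.2% in K36M, 11.3% and 16.1% in Ctrl, and 11.8% and 16.8% in Nsd2 KD cells. From D2 to D7 they were 15.7% and 5.08% in WT and 15.7% and 7.02% in K36M cells. With Rosi they were 9.96% and 5.05% in WT and 7.9% and 8.85% in K36M cells. *Prdm16* lay below 1 RPKM in the WT Rosi step. The members' median log2 ratio from D0 to D2 was 0.23 in WT, 0.28 in K36M, 0.29 in Ctrl, and -0.12 in Nsd2 KD cells, and the median over all genes above 0 was -0.04, -0.07, 0.00062, and -0.02 in the same order.

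**Figure D1:**
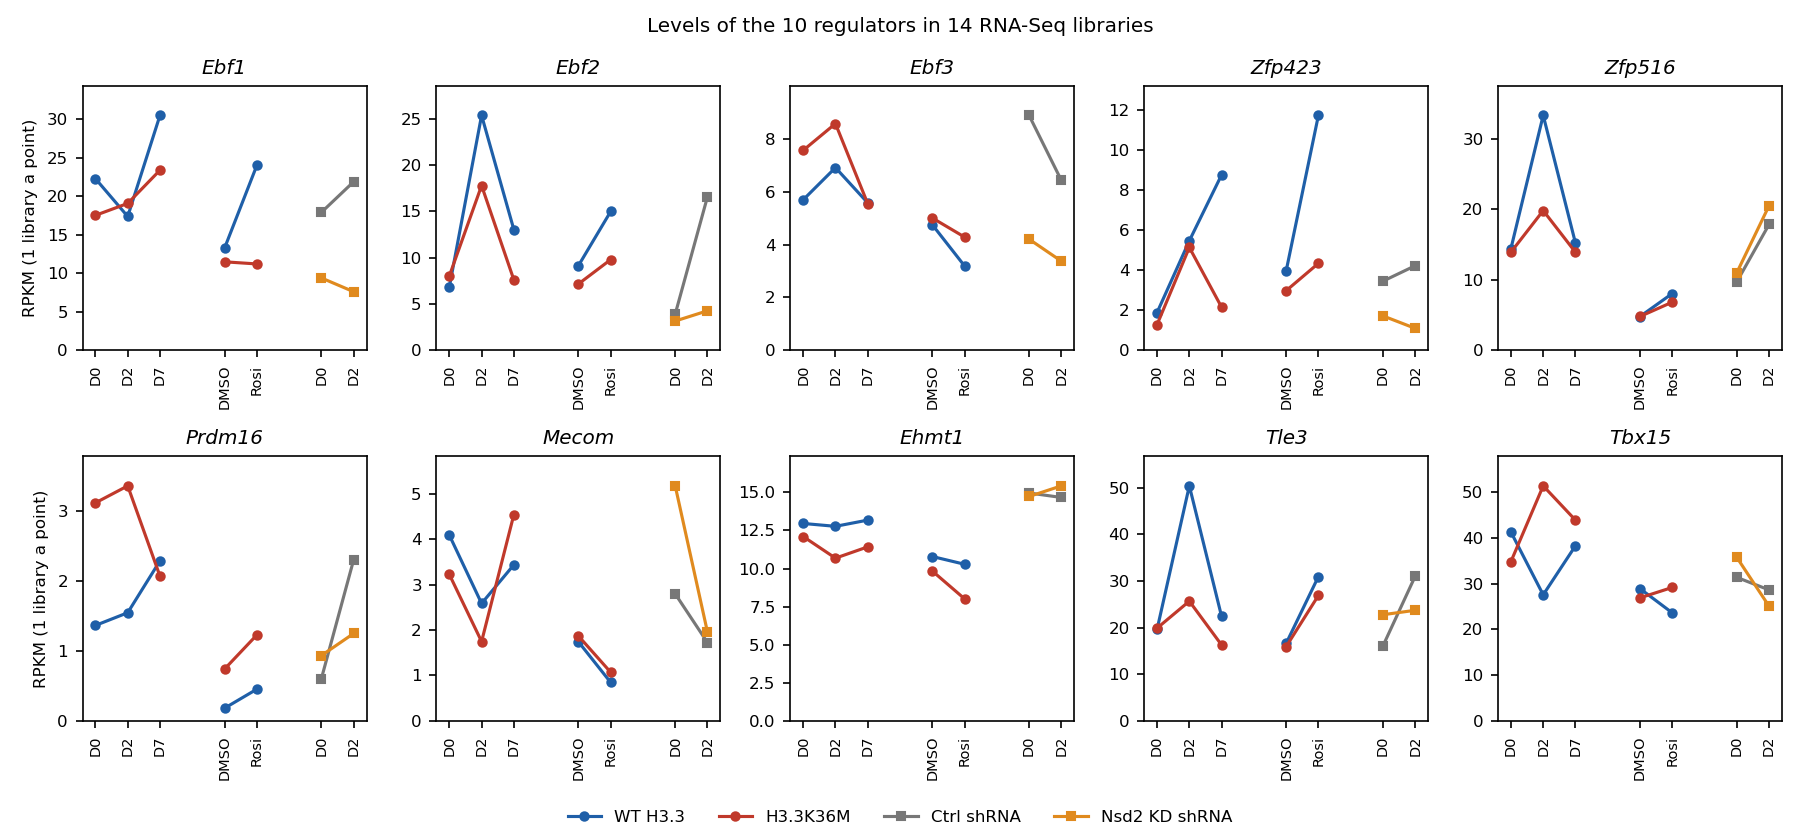
RPKM of each of the 10 members (vertical axis, from 0) in the 14 libraries, by day of adipogenesis or treatment (horizontal axis), with 1 library per point and lines joining libraries of the same cells. *Ebf2* peaks at D2 in WT and K36M cells (25.4 and 17.8). From D0 to D2 it goes from 3.90 to 16.6 in Ctrl and from 3.16 to 4.26 in Nsd2 KD cells, which have no D7 library. *Ehmt1* lies between 8.01 and 15.4 throughout.

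*Ebf2* (NM_010095, mm9 chr14:67852129-68048604, plus strand), the EBF factor that marks brown precursors, was the member with the largest call from D0 to D2 in WT cells. Over D0, D2, and D7 its RPKM was 6.82, 25.4, and 13.0 in WT cells, against 8.01, 17.8, and 7.60 with K36M. Ctrl cells held 3.90 before induction and 16.6 at D2, and Nsd2 KD cells 3.16 and 4.26. The 3 libraries at D2 other than the knockdown were thus the highest of all 14. From D0 to D2 its log2 ratio was 1.90 in WT cells (interval 1.77 to 2.03, 3.72-fold) and 2.09 in Ctrl cells (1.91 to 2.26, 4.24-fold), and 1.15 in K36M cells (1.01 to 1.29). In Nsd2 KD cells it was 0.43 (0.19 to 0.68). The increase differed between Nsd2 KD and Ctrl cells by -1.65 on the log2 scale (-1.95 to -1.36) and between K36M and WT cells by -0.75 (-0.94 to -0.56), and between the control lines by 0.19 (-0.02 to 0.40). At D2 the level in Nsd2 KD cells was 3.89-fold lower than in Ctrl cells (log2 ratio -1.96, -2.14 to -1.78). With PPARγ, *Ebf2* went from 9.13 with DMSO to 15.0 with Rosi in WT cells and from 7.16 to 9.79 in K36M cells, in neither case over 2-fold.

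*Ebf1* (NM_007897, chr11:44430819-44821593, plus strand), a related factor that binds adipogenic genes, followed another course. The successive days gave 22.3, 17.4, and 30.5 RPKM in WT and 17.5, 19.1, and 23.4 in K36M cells, so WT cells had their highest level at the end of adipogenesis. Ctrl cells held 17.9 and 21.9 and Nsd2 KD cells 9.41 and 7.62, the lowest of the 14 libraries. The log2 ratio of Nsd2 KD to Ctrl was -0.93 at D0 (-1.11 to -0.75) and -1.52 at D2 (-1.71 to -1.34), whereas Ctrl and WT cells differed by -0.32 and 0.33. In WT cells with PPARγ the level was 13.3 with DMSO and 24.0 with Rosi, a ratio of 0.86 (0.71 to 1.00) short of 2-fold, and K36M cells had 11.5 with DMSO and 11.2 with Rosi. The difference between these responses was -0.89 (-1.13 to -0.65), and with Rosi the K36M cells stood 2.14-fold below WT cells.

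*Ebf3* (NM_010096, chr7:144385356-144506128, minus strand), the third EBF factor examined, ranged from 3.19 to 8.88 RPKM. WT cells gave 5.69, 6.91, and 5.58 and K36M cells 7.56, 8.57, and 5.54 over D0, D2, and D7, and none of these steps was over 2-fold. The Ctrl libraries of D0 and D2 had 8.88 and 6.43, against 4.20 and 3.37 in Nsd2 KD cells, log2 ratios of -1.08 (-1.26 to -0.90) and -0.93 (-1.14 to -0.73). With PPARγ the DMSO and Rosi libraries had 4.75 and 3.19 in WT, and 5.004 and 4.28 in K36M cells. All 3 EBF genes were therefore lower in Nsd2 KD than in Ctrl cells at both days. For *Ebf2* at D0 the log2 ratio, -0.31, was smaller in size than the difference between the control lines, -0.80. In K36M cells *Ebf3* was lower than in WT cells in 1 of 5 pairs, and *Ebf1* and *Ebf2* each in 4 of 5.

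*Zfp423* (NM_033327, chr8:90185709-90483494, minus strand), a zinc finger protein that binds EBF factors and is needed to make preadipocytes, had the widest spread after *Prdm16*. WT cells gave 1.89, 5.47, and 8.77 RPKM over D0, D2, and D7, each above the last, and K36M cells 1.28, 5.14, and 2.15. The D0 to D2 step was 1.54 (1.30 to 1.78) in WT and 2.00 (1.70 to 2.31) in K36M cells, while from D2 to D7 the log2 ratio was 0.68 (0.51 to 0.85) in WT and -1.26 (-1.56 to -0.96) in K36M cells. The levels therefore met at D2 and were 4.07-fold apart at D7, a log2 ratio of K36M to WT of -2.03 (-2.31 to -1.75). Rosi with PPARγ gave 11.7 against 3.96 with DMSO in WT cells (1.57, 1.40 to 1.74, 2.96-fold) and 4.35 against 2.98 in K36M cells (0.55, 0.31 to 0.78), a difference between the responses of -1.02 (-1.30 to -0.74). Ctrl cells held 3.46 at D0 and 4.23 at D2 and Nsd2 KD cells 1.72 and 1.10, so that at D2 the knockdown was 3.86-fold lower (-1.95, -2.28 to -1.62). The Ctrl cells did not show the step of WT cells. Their D0 to D2 ratio was 0.29 (0.08 to 0.50), lower than in WT cells by 1.25 (interval of the difference, Ctrl minus WT, -1.56 to -0.93).

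*Zfp521*, another EBF-binding zinc finger protein that inhibits *Ebf1*, moved the other way in WT cells, falling to 1.97 RPKM at D2 from 7.98 before induction (log2 ratio -2.02, -2.23 to -1.81), with 7.97 again by D7. In K36M cells it was 2.86, 3.33, and 7.83. The fourth EBF gene, *Ebf4*, stayed at or below 1.04 RPKM. Of these 2 genes fixed as a list, none was up (13.6% of all genes) and 2 were down (25.2%) in WT cells from D0 to D2. *Ebf4* was below 1 RPKM there.

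**Figure D2:**
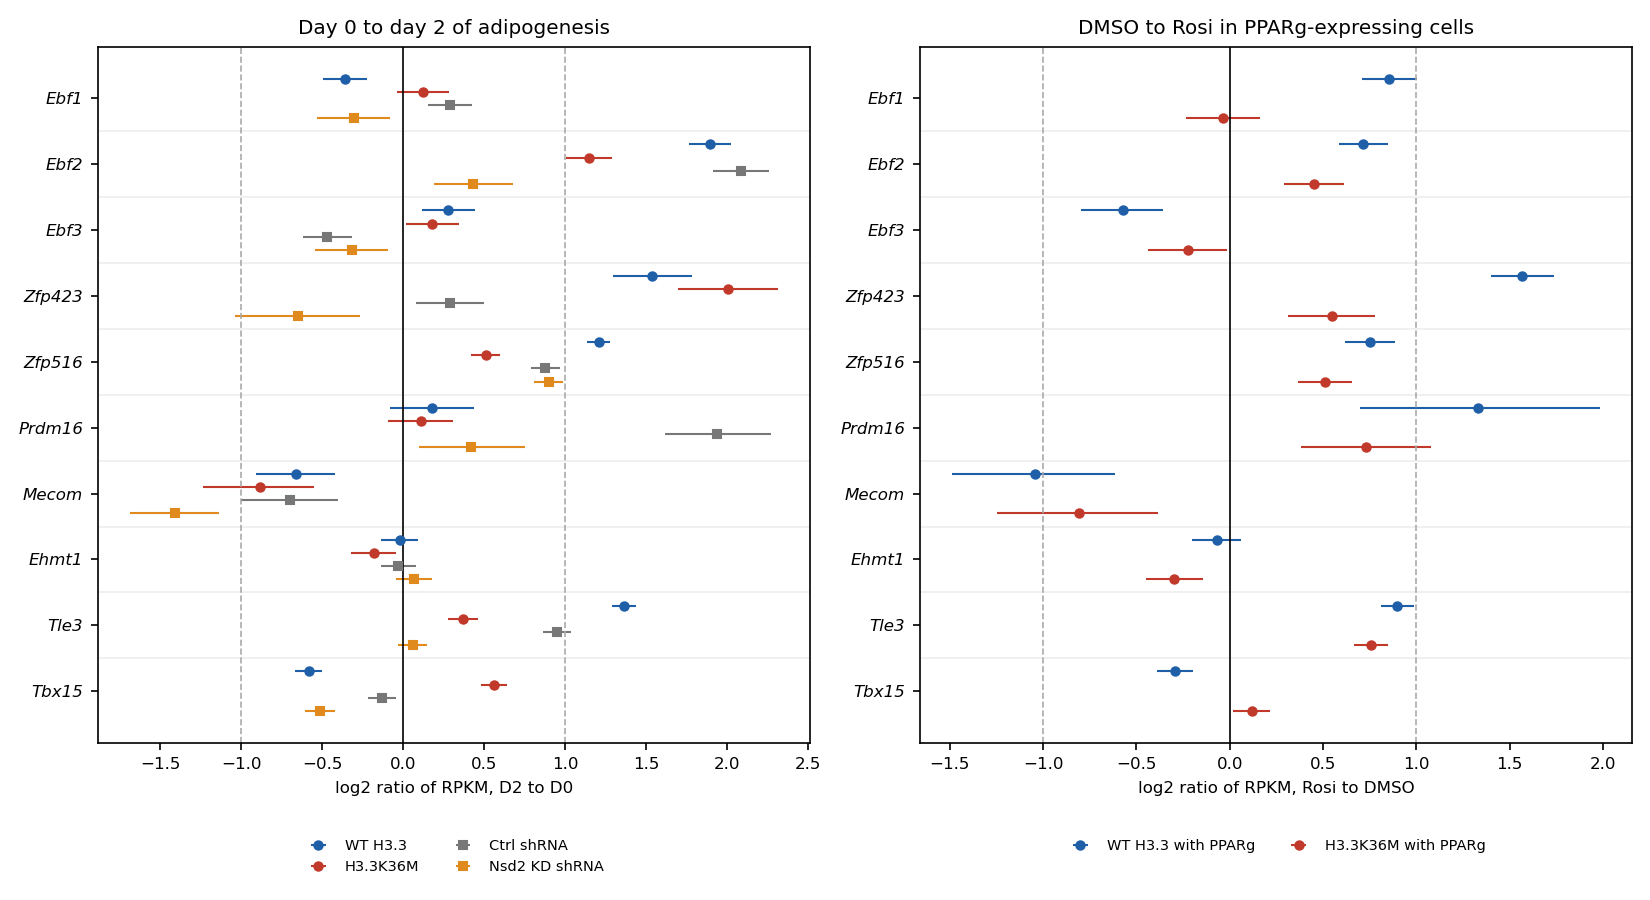
Log2 ratio of RPKM for each member (horizontal axis) from D0 to D2 in the 4 kinds of cells (left) and from DMSO to Rosi in cells with PPARγ (right), with 95% counting intervals as bars and 2-fold as dashed lines. *Ebf2* lies at 1.90 and 2.09 in the WT and Ctrl cells and at 0.43 in Nsd2 KD cells, and *Zfp423* with Rosi lies at 1.57 in WT and 0.55 in K36M cells.

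*Zfp516* (NM_001177464, mm9 chromosome 18 from 83080271 to 83174706, plus strand), a zinc finger protein induced by cold, was high at D2 in every experiment that included that day. WT cells had 14.4, 33.3, and 15.2 RPKM and K36M cells 13.9, 19.8, and 13.9 at D0, D2, and D7. The log2 ratio from D0 to D2 was 1.21 (1.14 to 1.28) in WT and 0.51 (0.42 to 0.60) in K36M cells, lower by 0.70 on the log2 scale (difference -0.81 to -0.58). Unlike those of *Ebf2*, its D0 to D2 ratios in the shRNA lines lay close together. Ctrl cells went from 9.71 to 17.9 (0.88, 0.79 to 0.97) and Nsd2 KD cells from 11.0 to 20.5 (0.90, 0.81 to 0.99), a difference of 0.02 (-0.11 to 0.15). With PPARγ the level was 4.79 and 8.05 in WT and 4.80 and 6.83 in K36M cells with DMSO and Rosi. These 4 libraries, of sub-confluent cells, were the lowest of the 14.

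*Prdm16* (NM_001177995, chr4:153690234-154010982, minus strand), the PR domain factor that directs precursors to brown fat, had few reads, from 33 to 522 per library. Over D0, D2, and D7, WT cells gave 1.36, 1.55, and 2.29 RPKM and K36M cells 3.12, 3.36, and 2.07. The level in K36M cells was thus higher than in WT cells at D0 (log2 ratio 1.19, 0.97 to 1.42) and D2 (1.12, 0.88 to 1.36) but not at D7 (-0.15, -0.41 to 0.12). With PPARγ, WT cells had 0.180 under DMSO and 0.452 under Rosi, and K36M cells 0.740 and 1.23, ratios of K36M to WT of 2.04 (1.49 to 2.63) and 1.44 (1.00 to 1.90). K36M cells therefore held more *Prdm16* RNA in 4 of 5 pairs of libraries, and the interval lay above 0 in those 4. In WT cells Rosi gave a ratio of 1.33 (0.70 to 1.98) on 33 and 63 reads.

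The Ctrl libraries bear on how far such a difference can be read. In Ctrl cells *Prdm16* read 0.600 before induction and 2.30 at D2, a ratio of 1.94 (1.62 to 2.27), although WT cells showed 0.18 (-0.08 to 0.44) over the same days. At D0 the Ctrl cells stood 2.27-fold below WT cells, as far as K36M cells stood above them (2.29-fold). Nsd2 KD cells had 0.932 and 1.25, higher than Ctrl at D0 (0.64, 0.25 to 1.02) and lower at D2 (-0.88, -1.14 to -0.63). So the direction for this gene differed between days in the knockdown, and its spread between control lines at D0 was about as large as its K36M difference.

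*Mecom* (NM_007963, chr3:29850221-30446930, minus strand), which encodes the PRDM16 relative PRDM3, was lower at D2 than at D0 in all 4 kinds of cells. WT cells had 4.10, 2.59, and 3.44 and K36M cells 3.23, 1.75, and 4.55 at D0, D2, and D7. Ctrl cells held 2.80 and 1.73, and Nsd2 KD cells 5.18 and 1.96. The log2 ratio from D0 to D2 was -0.66 in WT (-0.91 to -0.42), -0.89 in K36M (-1.23 to -0.55), -0.70 in Ctrl (-0.999 to -0.402), and -1.41 in Nsd2 KD cells (-1.68 to -1.13), the last of which was called. Rosi gave lower levels as well, 0.846 against 1.74 for DMSO in WT cells (-1.04, -1.49 to -0.62) and 1.07 against 1.87 in K36M cells (-0.81, -1.25 to -0.38). *Mecom* and *Ebf2* therefore lay on opposite sides of 0 in each step from D0 to D2 and from DMSO to Rosi, and also from D2 to D7.

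The deposited files list a second *Mecom* transcript, NM_021442, of 1075 bases, against 4429 bases for NM_007963, and the transcripts did not move alike. For NM_021442, WT cells gave 1.04, 1.22, and 1.54 RPKM and K36M cells 0.422, 0.0742, and 0.609 over D0, D2, and D7, on 1 to 25 reads. Its ratio of K36M to WT was -1.31 at D0 (-2.60 to -0.15), -4.04 at D2 (-9.39 to -1.42), where K36M cells held 1 read, and -1.33 at D7 (-2.71 to -0.11). NM_007963 had -0.34 (-0.57 to -0.12), -0.57 (-0.93 to -0.22), and 0.40 (0.13 to 0.68), so at D7 the transcripts lay on opposite sides of 0. In Nsd2 KD cells NM_021442 was 2.19 at D0 against 0.659 in Ctrl cells (1.73, 0.83 to 2.72) and 1.47 against 0.877 at D2 (0.75, -0.14 to 1.67). With PPARγ it stood on 2 to 6 reads, too few to compare. Which of the starts shown above each transcript uses was not determined, nor whether either transcript encodes PRDM3 itself. The values are therefore of the *Mecom* gene and not of PRDM3 alone. Reads shared between the transcripts could not be told apart.

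**Figure D3:**
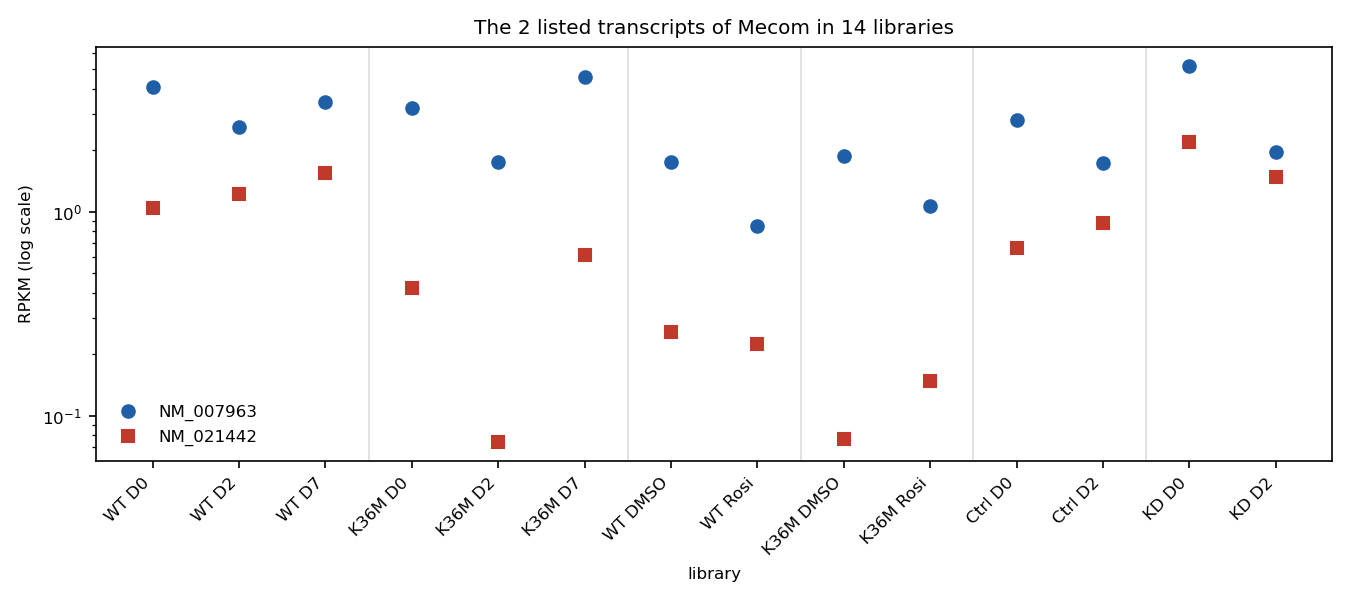
RPKM on a log scale (vertical axis) of the 2 listed *Mecom* transcripts, NM_007963 (circles) and NM_021442 (squares), in the 14 libraries (horizontal axis). NM_021442 lies at 1.04 to 1.54 in WT cells over D0, D2, and D7 and at 0.0742 to 0.609 in K36M cells.

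*Ehmt1* (NM_001109687, chr2:24646289-24775129, minus strand), an H3K9 methyltransferase of the PRDM16 complex, was the steadiest member. Its 14 values ran from 8.01 to 15.4 RPKM, and no comparison reached 2-fold. WT cells had 13.0, 12.8, and 13.2 and K36M cells 12.1, 10.7, and 11.4 at D0, D2, and D7, so K36M cells were lower at each day. The ratios of K36M to WT over all 5 pairs lay between -0.36 and -0.10, 4 of them with intervals below 0, and all 5 were negative after rescaling by the median ratio too. Nsd2 KD and Ctrl cells differed by -0.02 (-0.13 to 0.09) at D0 and 0.07 (-0.03 to 0.18) at D2.

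*Tle3* (NM_001083928, chr9:61220190-61266297, plus strand), a corepressor that also acts with PPARγ, peaked at D2. WT cells had 19.6, 50.4, and 22.4 RPKM and K36M cells 19.9, 25.7, and 16.3, so the cells were close at D0 and far apart at D2. From D0 to D2 the log2 ratio was 1.36 (1.29 to 1.44) in WT and 0.37 (0.27 to 0.46) in K36M cells, a difference of -0.99 (-1.11 to -0.87). In Ctrl cells it went from 16.1 to 31.0 (0.95, 0.86 to 1.04), and in Nsd2 KD cells from 22.7 to 23.7 (0.06, -0.03 to 0.15), a difference of -0.89 (-1.01 to -0.77). The D0 to D2 step was thus smaller in both perturbed lines than in their controls, while between the control lines, Ctrl minus WT, it differed by -0.41 (-0.52 to -0.30). With PPARγ, Rosi gave 30.9 against 16.6 in WT and 26.9 against 15.9 in K36M cells, log2 ratios of 0.90 and 0.76.

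*Tbx15* (NM_009323, chr3:99044304-99158182, plus strand), a T-box factor of brown fat and certain white depots, had the highest RPKM of the members. WT cells had 41.3, 27.6, and 38.3 RPKM and K36M cells 34.8, 51.4, and 43.9 at D0, D2, and D7. The D0 to D2 ratios thus had opposite signs, -0.58 (-0.67 to -0.50) in WT and 0.56 (0.48 to 0.64) in K36M cells, a difference of 1.14 (1.03 to 1.26). The K36M level at D2 was 1.87-fold above WT (0.90, 0.81 to 0.99). Ctrl cells held 31.4 and 28.6 and Nsd2 KD cells 35.8 and 25.1, which lay within 0.19 of each other on the log2 scale at both days. PPARγ libraries had 28.9 and 23.6 in WT and 26.9 and 29.2 in K36M cells with DMSO and Rosi.

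The next question was how K36M and Nsd2 knockdown compared with their controls over all members. For K36M against WT cells, *Prdm16* was called up at D0 (background 14.8% up, 12% down) and D2 (22.2% up, 9.9% down), and no member was called down at these days. At D7 none was up (19.7%) and *Zfp423* was down (13.2%). With PPARγ and DMSO, *Prdm16* was up (23.9%) and none down (8.31%), and with Rosi *Prdm16* was up (28.4%) and *Ebf1* and *Zfp423* were down (12.6%). *Zfp423* was the member lower in K36M cells in all 5 pairs besides *Ehmt1*, with intervals below 0 in 4. Nsd2 KD against Ctrl gave no member up and *Ebf3* and *Zfp423* down at D0 (background 13.5% up, 18.1% down), and no member up and *Ebf1*, *Ebf2*, and *Zfp423* down at D2 (12% up, 18.5% down). These shares cover all genes above 0 in a library, many of them with few reads. Among genes of at least 1 RPKM in 1 of the libraries compared, the shares were smaller. For K36M against WT they were 5.02% up and 6.36% down at D0, 11.2% and 4.37% at D2, 11.7% and 8.46% at D7, 5.09% and 3.11% with DMSO, and 7.02% and 12.1% with Rosi, and for Nsd2 KD against Ctrl 6.61% and 10.8% at D0 and 4.88% and 9.57% at D2. *Prdm16* with DMSO, at 0.180 and 0.740 RPKM, is below that level.

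**Figure D4:**
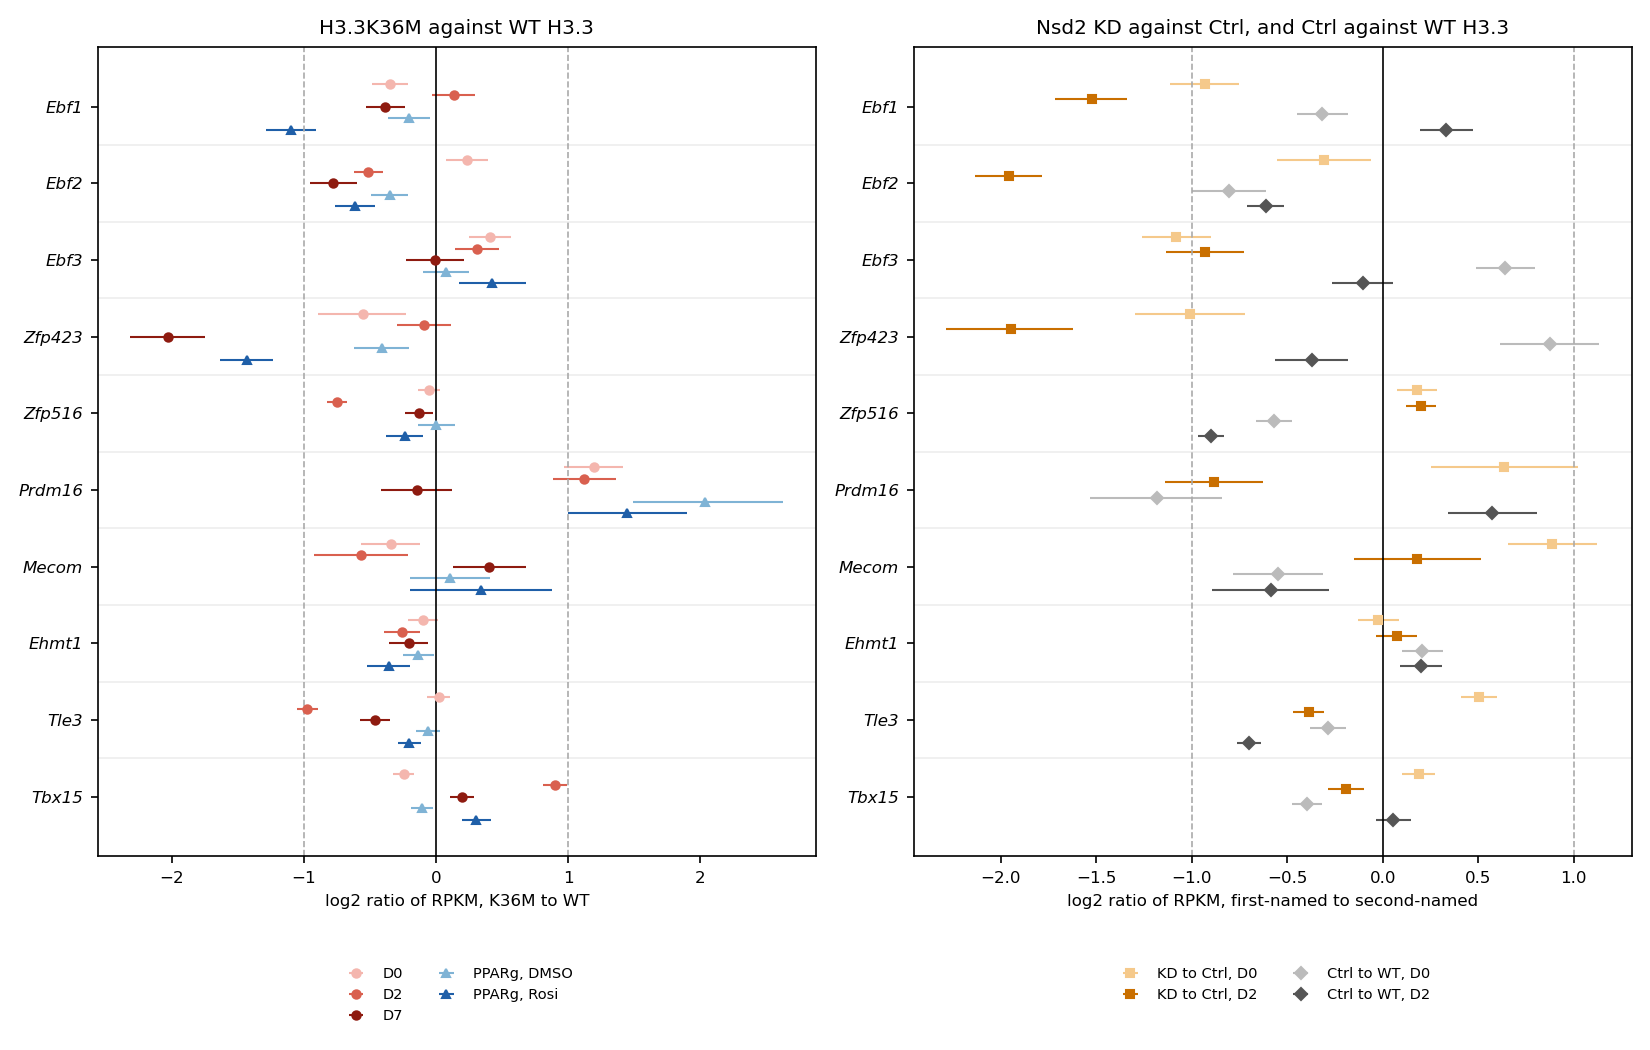
Log2 ratio of RPKM for each member (horizontal axis) of K36M to WT cells (left) and of Nsd2 KD to Ctrl and Ctrl to WT cells (right), with 95% counting intervals as bars and 2-fold as dashed lines. *Zfp423* lies at -2.03 in K36M cells at D7 and at -1.95 in Nsd2 KD cells at D2, and *Prdm16* differs between the control lines by -1.18 at D0.

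The WT and Ctrl cells at the same day are the closest pair to replicates here, although they differ by vector and experiment. Their log2 difference had a median size of 0.56 over the members at D0 (0.21 to 1.18) and 0.47 at D2 (0.05 to 0.90). Compared with the member's own difference between the control lines, the Nsd2 KD difference was larger in size for 5 of 10 members at D0 and 6 of 10 at D2, and the K36M difference for 2 of 10 at D0 and 5 of 10 at D2. These counts compare size and not sign. At D0, *Ebf3* and *Zfp423*, called down in Nsd2 KD cells, stood at -1.08 and -1.01, where Ctrl to WT was 0.64 and 0.87. Nsd2 KD cells held 4.20 and 1.72 RPKM of these genes, WT cells 5.69 and 1.89, and Ctrl cells 8.88 and 3.46. At D2, *Ebf1*, *Ebf2*, and *Zfp423* in Nsd2 KD cells stood at -1.52, -1.96, and -1.95. The control lines differed there by 0.33, -0.61, and -0.37. The K36M ratio of *Ebf2* at D2, -0.51, was smaller in size than that control difference, as was that of *Zfp516*, -0.75 against -0.90. For *Tle3* it was -0.97 against -0.70, and for *Tbx15* 0.90 against 0.05.

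Adipocyte genes moved beside these members, and their part in the members' differences was not tested. Of 10 adipocyte genes, 8 were over 2-fold up in WT cells between D0 and D2 and 9 in K36M and Ctrl cells. In Nsd2 KD cells 7 were up, 5 of them at 1 RPKM or more. The share of all genes up was 13.6% in WT, 16.5% in K36M, 17.3% in Ctrl, and 16.9% in Nsd2 KD cells. With Rosi 8 were up in WT cells (17% of all genes) and 7 in K36M cells (18.3%). In K36M against WT cells 4 of the 10 were down at D0 (12% of all genes), 6 at D2 (9.9%), and 8 at D7 (13.2%). With PPARγ 4 were down with DMSO (8.31%) and 7 with Rosi (12.6%). In Nsd2 KD against Ctrl cells 4 were up (13.5%) and 3 down (18.1%) at D0, and 8 were down at D2 (18.5%). At 1 RPKM or more the D0 counts were 1 up and 3 down. *Fabp4*, a fatty acid carrier, was 3249 RPKM in WT, 1473 in K36M, 1269 in Ctrl, and 34.5 in Nsd2 KD cells at D2. *Lpl*, the lipoprotein lipase, was 2145, 470, 1073, and 105 in the same order. *Cebpb*, an early C/EBP factor, was 196 in WT, 197 in K36M, 168 in Ctrl, and 284 in Nsd2 KD cells at D2, and *Adipoq*, the adiponectin gene, 6.16, 10.6, 3.42, and 0.18. Retroviral PPARγ adds to *Pparg* reads in the Rosi experiment, so that gene is not given there.

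Brown fat identity genes gave a mixed picture. Of 14 listed, 8 were up (13.6% of all genes) and 1 down (25.2%) in WT cells between D0 and D2. In K36M against WT cells 4 were up (22.2%) and 2 down (9.9%) at D2. At D7 none was up (19.7%) and 8 were down (13.2%). In Nsd2 KD against Ctrl cells at D2, 2 were up (12%) and 7 down (18.5%). Among listed genes of at least 1 RPKM the counts were 6 up and none down, 3 and 1, none and 6, and 1 and 4 in the same order. *Ppargc1b*, a coactivator of mitochondrial genes, went from 0.844 to 9.13 RPKM from D0 to D2 in WT cells (3.44, 3.07 to 3.82), and was 1.24 in Nsd2 KD against 6.51 in Ctrl cells at D2. *Esrra*, a nuclear receptor of mitochondrial genes, was 18.2 in WT and 11.0 in K36M cells at D2, and 16.3 in Nsd2 KD against 13.96 in Ctrl cells. *Pdk4*, a kinase that limits glucose oxidation, was 35.5 in K36M against 12.6 in WT cells at D2. *Zic1*, a marker of interscapular brown fat, was 12.3 in Nsd2 KD against 5.01 in Ctrl cells at D2 (1.29, 1.10 to 1.48) and 16.0 against 5.59 at D0, so it was higher before induction as well. It was the 1 gene of the list at this level that was up in Nsd2 KD cells at D2, where *Lhx8* was 0.0286 against 5.37, *Elovl3* 1.05 against 4.36, and *Ppargc1a* 0.666 against 2.36. The brown markers thus did not move as 1 block with the members.

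Corepressors other than *Tle3* were measured in the same libraries, 12 in all. From D0 to D2 in WT cells 2 were up (13.6% of all genes) and 2 down (25.2%). In K36M against WT cells at D2, 2 were up (22.2%) and 2 down (9.9%). In Nsd2 KD against Ctrl cells at D2, none was up (12%) and 2 were down (18.5%). At 1 RPKM or more the counts were 2 up and 2 down, 2 and 1, and none in either direction, since *Tle6* and *Hdac9*, those called in Nsd2 KD cells, lay at or below 0.246 RPKM in both libraries. *Tle5* (listed as *Aes*) was 129, 97.1, and 210 RPKM in WT cells at D0, D2, and D7, and *Ctbp1* 66.7, 71.7, and 70.7. *Hdac3* had 35.2 RPKM in WT cells at D2 and 33.6 in K36M cells. Of 17 other PRDM and H3K9 methyltransferase genes found in the files, 1 was up and 3 were down in K36M against WT cells at D2. In Nsd2 KD against Ctrl cells at D2, 2 were up and 3 down. The shares of all genes were 22.2% up and 9.9% down in the first comparison and 12% and 18.5% in the second. At 1 RPKM or more none of 10 was called in the first comparison, and 1 was up (*Suv39h2*, 6.76 against 3.05) and none down in the second. *Ehmt2*, the partner of *Ehmt1*, was 27.1 RPKM in both WT and K36M cells at D2, *Prdm4* 11.0 and 14.8, *Wiz* 18.1 and 18.2, and *Suv39h1* 12.4 and 12.7.

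Of 7 other T-box genes, 3 were up (14.8% of all genes) and 1 down (12%) in K36M against WT cells at D0. At D2 3 were up (22.2%) and 1 down (9.9%), and at D7 6 were up (19.7%) and none down (13.2%). In Nsd2 KD against Ctrl cells at D2, 1 was up (12%) and 4 were down (18.5%). At 1 RPKM or more the counts were 2 up and none down, 1 and 1, 4 and none, and none and 1 (*Tbx2*, 0.620 against 1.31) in the same order. *Tbx5*, a factor of the forelimb and heart, was 0.403 RPKM in WT and 2.71 in K36M cells at D0 (2.75, 2.22 to 3.31). *Tbx18* was 4.28 in WT and 3.96 in K36M cells at D2, *Tbx3* 2.58 and 2.62, and *Tbx2* 1.94 and 0.87. *Tbx18* reached at most 10.4 RPKM in any library, whereas *Tbx15* never stood below 23.6.

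Muscle, white fat, and preadipocyte genes complete the lists. Of 12 muscle lineage genes, 2 were up (13.6% of all genes) and 3 down (25.2%) from D0 to D2 in WT cells. At 1 RPKM or more none was up and 1 was down. Levels were low throughout except *Pax3* (3.43 to 9.28 RPKM) and *Acta1* (0.24 to 67.5), and *Des* and *Myl1* reached 3.84 and 0.23. Of 10 genes used as white fat marks, 3 were up (13.6%) and none down (25.2%) in WT cells between D0 and D2. In K36M against WT cells at D7, 1 was up (19.7%) and 4 were down (13.2%). At 1 RPKM or more the counts were 2 up and none down, and 1 up and 2 down. Among the white fat marks, *Retn* was 79.3 RPKM in WT and 8.02 in K36M cells at D7, *Agt* 199 and 23.3, *Hoxc8* 8.30 and 7.33, and *Psat1* 148 and 100.46. Of 8 preadipocyte genes, 1 was up and 7 down in WT cells between D0 and D2, against none up and 2 down in K36M cells. Ctrl cells had none up and 5 down, and Nsd2 KD cells 1 up and 5 down. Shares of all genes down were 25.2%, 19.6%, 23.4%, and 24.5% in the same order. In K36M against WT cells, 1 of the 8 was up (14.8% of all genes) and 2 were down (12%) at D0. At D2 4 were up (22.2%) and 1 was down (9.9%). At D2 *Ly6a* was 31.3 RPKM in WT and 86.3 in K36M cells, *Pdgfra* 5.68 and 11.2, *Pdgfrb* 11.6 and 14.5, and *Dlk1* 6.09 and 17.4. *Gata3*, the gene called down at D2, was 9.17 and 2.01. At D0 K36M cells were lower than WT cells for *Ly6a*, *Pdgfra*, *Pdgfrb*, and *Dlk1*, but not for every gene of the list. *Wnt10b*, the gene called up at D0, was 0.903 in WT and 2.51 in K36M cells, and *Gata2* 11.1 and 16.3. *Ly6a* was 197 in WT and 60.5 in K36M cells, *Pdgfra* 29.5 and 8.30, *Pdgfrb* 70.7 and 41.0, and *Dlk1* 27.6 and 21.7.

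Across the 14 libraries, the members did not form 1 pattern. The highest Pearson correlations of log2(RPKM + 0.1) between members were 0.71 for *Prdm16* and *Zfp516*, 0.70 for *Ebf2* and *Zfp423*, and 0.67 for *Ebf2* and *Tle3*, and the lowest was -0.53 for *Zfp423* and *Mecom*. Among 10544 genes with enough reads, the profile of *Ebf2* was most like *Idh3a* (0.93) and *Nadk* (0.93), and that of *Zfp423* most like *Pxmp4* (0.94) and *Eci2* (0.93). *Zfp516* was nearest *Pi4k2a* (0.97), *Zranb1* (0.96), and *Zfp609* (0.96), and *Tle3* nearest *Btg1* (0.92), *Pim3* (0.88), and *Irs2* (0.87). For *Ebf1* the genes were *Fcgrt* (0.95), *Ghr* (0.94), and *Fars2* (0.94), and for *Ebf3* *Nin* (0.86), *Poglut2* (0.84), and *Mcm3ap* (0.80). *Prdm16* lay nearest *Zfp2* (0.94) and *Zfp958* (0.94), and *Mecom* nearest *Otud7b* (0.90), *Peg13* (0.88), and *Rnf169* (0.88). The closest to *Ehmt1* were *Mpzl1* (0.92), *Rfx3* (0.91), and *Wdfy3* (0.90), and to *Tbx15* *Tnk1* (0.93), *Ang* (0.90), and *Zfp719* (0.89). These values describe 14 libraries that share an immortalized cell type and a few experiments, and each was picked as the highest of many.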

How the data were processed

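RNA-Seq libraries of 14 conditions were used, 1 per condition, so no group has replicates. The authors deposited RPKM for 29082 RefSeq transcripts per library. The submitters' processing notes name CASAVA 1.8.2, SICER, and mm9, and the mapper and counter of the RNA-Seq reads are not given in the sources used here. A symbol was found for 28436 transcripts, and the transcript of the highest mean RPKM stood for its gene. From RPKM, whole reads were recovered for all 26946 transcripts that 2 or more libraries list above 0, giving 12213559 to 24365867 mapped reads per library. A value counted as whole within 1e-07 reads plus 3e-11 of its size, and the reads of 80 transcripts were multiplied by a whole number so that the length was whole within 0.0002 bases. Simulated data were used to test the recovery, the calls, and the intervals.

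A gene above 0 in either library was called at a ratio over 2-fold, without a pseudocount, and the background is the share of all genes so called. Intervals are 95% Clopper-Pearson intervals of recovered reads, and differences between responses have intervals from the same counting error. The members and lists were chosen with earlier results of these data known. All members are named, with up to 4 listed genes of the highest RPKM and the 3 genes most like each member by Pearson correlation of log2(RPKM + 0.1) with at least 20 reads in every library. Of the likeness genes, 2 carry no symbol and are left out. Some genes that this rule names are not reported here. *Ucp1*, *Cidea*, *Dio2*, *Itgam*, *Lhx8*, *Elovl3*, *Ppargc1a*, *Tle6*, *Hdac9*, *Suv39h2*, *Gata2*, *Gata3*, and *Wnt10b* were named after their values were seen. The isoforms listed for 5 members have nearly equal RPKM. Gene coordinates are GENCODE M1 on mm9, and promoters are RefSeq on GRCm38.p6. Alternatives were 2 filters on low values, pseudocounts of 0.1 and 1, rescaling by the median ratio, calls whose interval excludes 1, and sums over transcripts. *Prdm10* and *Cd68* were listed and not analysed here, and neither were the ChIP-Seq samples. Python 3.11.15, numpy 2.4.6, pandas 2.3.3, scipy 1.17.1, and matplotlib 3.10.9 were used.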

Additional observations from a re-analysis of the deposited data

Results flagged for a closer look

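The values below lie on opposite sides of 0 under the same contrast in different cells, days, or treatments, each with a counting interval that excludes 0, and whether they differ between conditions was not tested, since each is a log2 ratio of 2 single libraries. From D0 to D2, *Tbx15* was -0.58 in WT and 0.56 in K36M cells, *Ebf1* 0.29 in Ctrl and -0.30 in Nsd2 KD cells (against -0.36 in WT cells, so the control lines lay on opposite sides of 0 too), and *Zfp423* 0.29 in Ctrl and -0.65 in Nsd2 KD cells. From D2 to D7, *Prdm16* was 0.57 in WT and -0.70 in K36M cells, *Zfp423* 0.68 and -1.26, and *Tbx15* 0.47 and -0.23. From DMSO to Rosi, *Tbx15* was -0.29 in WT and 0.12 in K36M cells with PPARγ.

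The ratio of K36M to WT cells changed sides between days for *Ebf2* (0.23 at D0, -0.51 at D2, and -0.78 at D7) and for *Mecom* (-0.34 at D0, -0.57 at D2, and 0.40 at D7). For *Tbx15* the successive days gave -0.25, 0.90, and 0.20, and with PPARγ -0.10 with DMSO and 0.31 with Rosi. The ratio of Nsd2 KD to Ctrl cells changed sides between D0 and D2 for *Prdm16* (0.64 and -0.88), *Tle3* (0.50 and -0.39), and *Tbx15* (0.19 and -0.19). *Tbx15* thus stands in every one of the 3 experiments, always by less than 2-fold.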

How the results depend on the processing

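With 1 library per condition, no replicate could be left out, and depth limits *Prdm16* and *Mecom* most. The labels give no replicate numbers to pair. The 5 pairs of K36M and WT libraries are different days and treatments, and were counted by direction and not tested. No called member reversed under any alternative. The count of members over 2-fold changed by more than 1.5 times as follows. With a pseudocount of 1 it was 0 in place of 1 for K36M to WT at D0, at D2, and with PPARγ and DMSO, 1 in place of 3 for Rosi in WT cells, and 0 in place of 2 for Nsd2 KD to Ctrl at D0. With a pseudocount of 0.1 it was 1 for Rosi in WT cells and 1 for Nsd2 KD to Ctrl at D0. With an RPKM of at least 1 it was 0 for K36M to WT with PPARγ and DMSO. Rescaling gave 2 for K36M to WT at D2, where *Tle3* reached -1.05, and 1 for Nsd2 KD to Ctrl at D0, where *Zfp423* stood at -0.97. Summing over transcripts gave 2 for K36M to WT at D2, where *Mecom* reached -1.06. Rescaling moved the median by over 0.1 for K36M to WT at D7 only, by -0.12.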
